A study of Mus musculus with 9 samples.

Results

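Expression of 10 genes of the YAP/TEAD pathway was followed in 4T1-TGL, a mouse breast cancer line labelled as of strain BALBC. The 10 genes are the coactivator genes Yap1 and Wwtr1, the transcription factor genes Tead1 and Tead2, the regulators Lats2, Amotl2 and Ajuba, and the target genes Ankrd1, Axl and Arhgef17. They were chosen with earlier results of these data known, and taken as the entries whose symbol equals one of these names. All 10 were found among the 19072 genes listed in at least 1 library. RNA sequencing covered 9 libraries: 3 from a first Malat1 knockout line (KO1), 3 from a second Malat1 knockout line (KO2) and 3 from cells of WT genotype (Ctrl). All 9 came from 4T1-TGL cells kept in DMEM/F12 medium. The labels do not say how Malat1 was removed, whether each knockout line is 1 clone, or whether replicates were separate cultures. The p-values therefore measure only the spread between these libraries, which may be technical.

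The Hippo pathway limits the activity of a pair of related coactivators, YAP (Yap1) and TAZ (Wwtr1). Its LATS kinases phosphorylate them, which keeps them out of the nucleus, while angiomotin proteins hold them at cell junctions. In the nucleus YAP and TAZ bind DNA through TEAD factors and raise genes of growth, cytoskeleton and matrix. Some of those genes, such as Lats2 and Amotl2, encode inhibitors of the coactivators and so form a feedback loop. In breast cancer cells the pathway is known for its part in invasion and metastasis.

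TEAD factors bind the hexamer GGAATG, read as CATTCC on the other strand. The promoters below are shown because they hold it in the 4 genes of the set that fell in KO2 and have a RefSeq promoter (GRCm38.p6) with a match. Capitals mark each GGAATG or CATTCC. Each sequence runs 5′ to 3′ on the gene's strand over the 250 bases before the start used by its promoter entry. That start need not be the outermost end of the gene. The Amotl2 window lies within the gene span given below, as does most of the Axl window.
Ankrd1 promoter (chr19:36119845-36120094, - strand): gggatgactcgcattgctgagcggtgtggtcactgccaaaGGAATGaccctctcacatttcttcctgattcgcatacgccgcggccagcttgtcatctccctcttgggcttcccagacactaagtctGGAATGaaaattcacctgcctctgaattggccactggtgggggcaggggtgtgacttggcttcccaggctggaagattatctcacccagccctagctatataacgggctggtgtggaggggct
Ajuba promoter (chr14:54577662-54577911, - strand): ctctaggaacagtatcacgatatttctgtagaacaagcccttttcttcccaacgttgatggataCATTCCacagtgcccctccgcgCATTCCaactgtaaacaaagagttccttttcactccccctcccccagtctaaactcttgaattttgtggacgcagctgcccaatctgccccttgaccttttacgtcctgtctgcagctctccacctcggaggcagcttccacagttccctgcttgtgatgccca
Amotl2 promoter (chr9:102717554-102717803, + strand): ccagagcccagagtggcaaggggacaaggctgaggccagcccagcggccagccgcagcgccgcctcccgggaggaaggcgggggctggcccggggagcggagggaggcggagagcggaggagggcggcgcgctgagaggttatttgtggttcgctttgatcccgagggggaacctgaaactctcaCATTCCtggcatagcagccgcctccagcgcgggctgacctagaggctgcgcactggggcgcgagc
Axl promoter (chr7:25788734-25788983, - strand): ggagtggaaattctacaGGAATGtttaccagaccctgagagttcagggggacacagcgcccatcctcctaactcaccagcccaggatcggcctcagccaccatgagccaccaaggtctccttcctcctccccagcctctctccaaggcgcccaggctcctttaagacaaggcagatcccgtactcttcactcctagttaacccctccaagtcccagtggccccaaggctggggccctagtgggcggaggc
In Ankrd1 the matches began 210 and 123 bases before the start, in Ajuba 186 and 164, in Amotl2 65 and in Axl 233. The coactivator genes held the hexamer too, 141 bases before the start in Yap1 (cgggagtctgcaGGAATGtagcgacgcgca) and, at the start listed first, 170 bases before it in Wwtr1 (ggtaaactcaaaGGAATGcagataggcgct). Of the 8 genes with an entry, 6 held a match on either strand. Such a match was held by 14.4% of all 27025 genes with an entry and by 12.6% of all 32851 windows. Neither Lats2 window nor that of Tead2 held these letters, and Tead1 and Arhgef17 were not searched. The AP-1 motif TGANTCA, which often lies near TEAD sites, was in 0 of the 10 windows, against 6.75% of all windows. Both strands were searched, no match of one motif overlapped the other in these windows, and a match is a description, not evidence of binding.

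Malat1 itself, the targeted long noncoding RNA, stood at 3.88, 3.69 and 2.63 CPM in KO1, at 119, 160.1 and 98.1 in KO2, and at 510.3, 402 and 474 in Ctrl. The mean was 0.735% of Ctrl in KO1 and 27.2% in KO2, so Malat1 RNA was still measured in the KO2 line. CPM are expected counts relative to library size after TMM scaling, a scaling that evens out library composition. Totals per library ran from 30655924 to 35406395 expected counts. KO2 libraries listed fewer genes (15100 to 15678) than KO1 (16295 to 16488) and Ctrl (16104 to 16254). The first principal component, with 66.3% of the variance, set the 3 KO2 libraries apart. Among epithelial markers, the keratin genes Krt8 and Krt18 were abundant, while Epcam, Cdh1 and Cldn7 averaged at most 0.223 FPKM in any group. FPKM is the deposited level per kilobase of transcript and per library size. The summed level of these 5 markers was 799 to 939 FPKM in KO1, 1341.6 to 1447 in KO2 and 456 to 472 in Ctrl, so it moved with the groups. Fibroblast markers summed to 38.6 to 42.0, 20.3 to 21.1 and 42.8 to 45.1 FPKM in KO1, KO2 and Ctrl, nearly all of it Pdgfra, with Thy1 at 0. Macrophage and neutrophil markers summed to 30.01 to 50.1, 46.9 to 49.2 and 25.1 to 43.4 FPKM, in the same order, with Ptprc, Adgre1 and Csf1r averaging at most 0.02 in any group. Endothelial markers summed to at most 1.35, 1.55 and 6.46 FPKM, and T and NK cell markers to at most 2.47, 1.03 and 2.47, with Cd3g, Trac and Nkg7 at 0. The part of these markers in the results was not tested, and fewer cells of a type cannot be told from less RNA per cell in such bulk samples.

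Coming to the 10 genes, 6 were called in KO1 against Ctrl, 1 higher and 5 lower, at an edgeR adjusted p under 0.05. In KO2 against Ctrl 8 were called, 2 higher and 6 lower. The background was high: calls covered 30.5% of the 13682 tested genes for KO1 (15.6% higher and 14.9% lower) and 54.1% for KO2 (24.6% higher and 29.5% lower). All 10 passed the filter on low counts. The set was chosen with earlier results of these data known, so its distance from the background is a description, not a test. Their median log2 fold change was -0.25 in KO1 and -0.52 in KO2, against -0.002 and -0.030 over all tested genes. Most changes were modest: only Ankrd1 and Arhgef17 in KO1, and Arhgef17 in KO2, changed at least 2-fold, as did 9.09% and 16.6% of all tested genes. Both lines are compared with the same 3 Ctrl libraries.

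**Figure D1:**
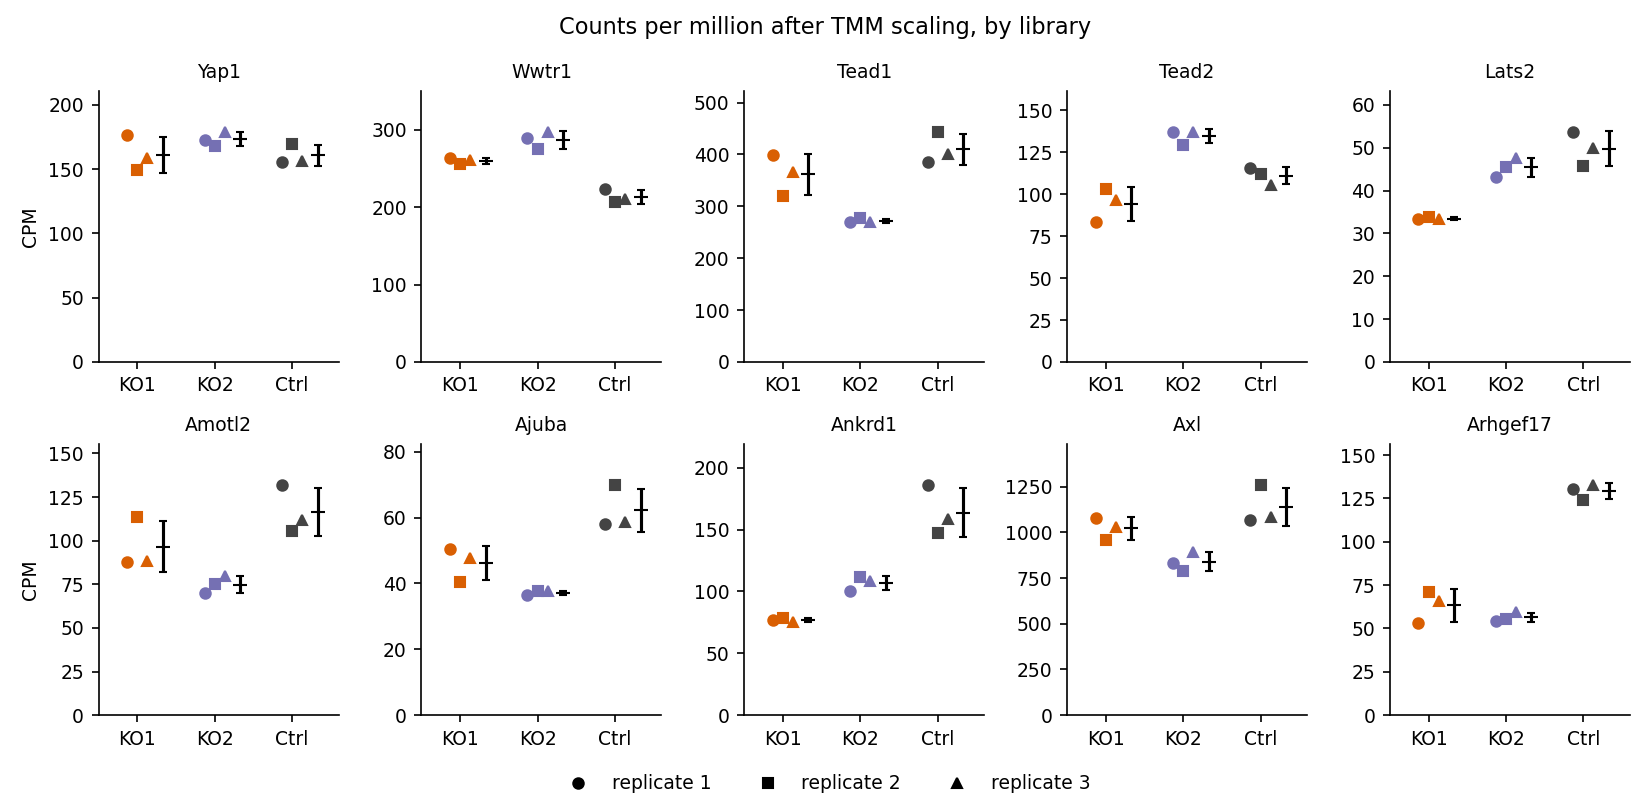
CPM after TMM scaling (y axes, from 0) of each of the 10 genes in the 9 libraries, with KO1, KO2 and Ctrl on the x axis, 1 symbol per replicate number, and the mean ± SD beside each group (n = 3). Yap1 overlaps between all groups, Wwtr1 is higher and Ankrd1 and Arhgef17 are lower in every knockout library than in every Ctrl library.

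Yap1 (gene 22601, chromosome 9, 7931999 to 8004638, GRCm38) was not called in either line. Its values were 176, 149 and 158 CPM in KO1, 172, 168 and 179 CPM in KO2, and 156, 170.0 and 156 CPM in Ctrl, with overlapping ranges. The log2 fold change was 0.0049 ± 0.0747 for KO1 (SE), with an edgeR adjusted p of 0.97, and 0.11 ± 0.0747 for KO2 (SE), with an edgeR adjusted p of 0.24. Wwtr1 (gene 97064, chromosome 3, 57455644 to 57575910), which encodes TAZ, rose in both lines. It stood at 263, 255 and 261 CPM in KO1, at 289, 275 and 297 CPM in KO2 and at 223, 206 and 210.1 CPM in Ctrl. Every knockout library thus lay above every Ctrl library, as CPM ranges failed to overlap for 42.7% of all tested genes in KO1 and 65.7% in KO2. The rise was 1.22-fold in KO1 (log2 fold change 0.28 ± 0.0610, SE; edgeR adjusted p = 0.00459), and it reached 1.35-fold for KO2 (0.43 ± 0.0611, SE; edgeR adjusted p = 0.000146).

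The FPKM ratio of Yap1 to Wwtr1 was accordingly lower in the knockout lines, at 0.767, 0.668 and 0.696 in KO1 and 0.682, 0.702 and 0.690 in KO2, against 0.797, 0.942 and 0.852 in Ctrl. Neither line overlapped Ctrl. Both comparisons gave a 2-sided exact permutation p of 0.1, the smallest that 3 against 3 libraries allow. FPKM carry no TMM scaling.

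The TEAD genes split. Tead1 (gene 21676, chromosome 7, 112679356 to 112906784) encodes a widely expressed TEAD factor and fell in KO2. Its values were 399.6, 319 and 366 CPM in KO1, 269.95, 277 and 269.9 CPM in KO2, and 386, 443 and 401 CPM in Ctrl. KO2 lay below Ctrl at 66.4% of its level (log2 fold change -0.59 ± 0.0861, SE; edgeR adjusted p = 0.000173). KO1 overlapped Ctrl (-0.18 ± 0.0857, SE; edgeR adjusted p = 0.135), but without KO1 replicate 1 the fold change was -0.26 and passed (edgeR adjusted p = 0.0321). Tead2 (gene 21677, chromosome 7, 45215792 to 45233468), known for its role in the early embryo, rose in KO2. It was at 83.2, 103 and 96.8 CPM in KO1, at 137, 129.7 and 137 CPM in KO2, and at 116, 112 and 106 CPM in Ctrl, so the 3 groups did not overlap. The log2 fold change was 0.28 ± 0.0818 for KO2 (SE), with an edgeR adjusted p of 0.0145, and -0.24 ± 0.0820 for KO1 (SE), with an edgeR adjusted p of 0.0493. The KO1 call was lost without any 1 of 8 of the 9 libraries, KO1 replicate 2 being the exception, with adjusted p up to 0.139 (without Ctrl replicate 1) from edgeR. It was also lost under 9 of the other settings tried. The KO2 call was lost without Ctrl replicate 3 (0.24, edgeR adjusted p = 0.0628), under total count scaling (0.20, edgeR adjusted p = 0.055), and in the limma fits to log2(FPKM + 1) (0.20, limma adjusted p = 0.0595) and log2(FPKM + 0.1) (0.20, limma adjusted p = 0.0588). Neither Tead2 call held at an adjusted p of 0.01.

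Tead1 and Tead2 made up most of the TEAD transcripts per length. Of the summed FPKM of the 4 TEAD genes, Tead1 held 40.6% ± 4.85 in KO1, 26.9% ± 0.927 in KO2 and 38.7% ± 1.93 in Ctrl (SD, n = 3 each). Tead2 held 49.2% ± 4.95 in KO1, 61.7% ± 0.970 in KO2 and 48.7% ± 2.00 in Ctrl (SD, n = 3 each). The sum itself was 95.8 ± 1.97 FPKM in KO1, 101 ± 1.77 FPKM in KO2 and 112 ± 3.35 FPKM in Ctrl (SD, n = 3 each). This sum carries no TMM scaling, and the TMM factors were 0.95 to 0.963 in KO2 and 1.004 to 1.02 in Ctrl. Unscaled values are thus lower in KO2 relative to Ctrl than scaled ones, so a smaller TEAD sum in KO2 is not established. A ratio within a library does not depend on this scaling. The ratio of coactivator to TEAD FPKM was 1.08, 0.974 and 0.988 in KO1 and 0.963, 0.956 and 1.0002 in KO2. In Ctrl it was 0.772, 0.739 and 0.773. Every knockout library lay above every Ctrl library, again at the smallest exact permutation p of 0.1 for each line. The less abundant Tead3 (log2 fold change -0.59, edgeR adjusted p = 0.000266) and Tead4 (-0.53, edgeR adjusted p = 0.000926) fell in KO1. In KO2 their values were -0.20 (edgeR adjusted p = 0.0512) and -0.21 (edgeR adjusted p = 0.0624).

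**Figure D2:**
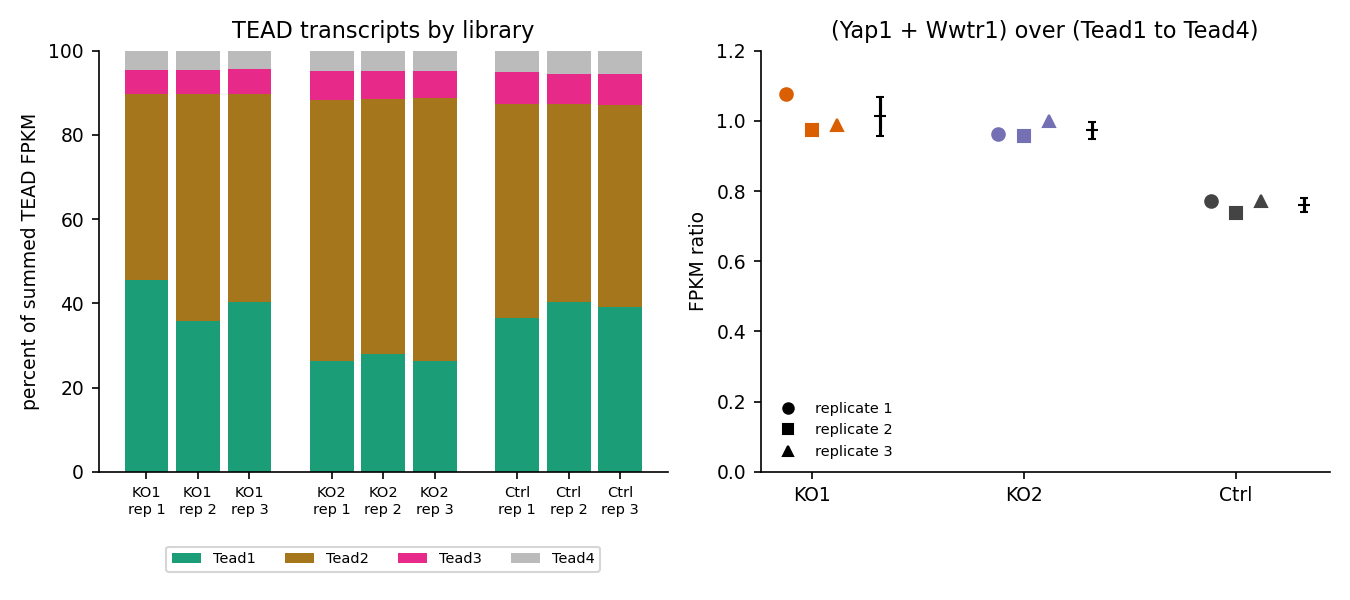
Left, share of each TEAD gene in the summed FPKM of Tead1 to Tead4 (y axis, percent) by library, for KO1, KO2 and Ctrl. Right, ratio of Yap1 plus Wwtr1 FPKM to the summed TEAD FPKM (y axis, from 0) by library with the mean ± SD (n = 3): KO1 and KO2 libraries sit between 0.956 and 1.08, all above the Ctrl libraries at 0.739 to 0.773.

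Among the regulators, Lats2 (gene 50523, chromosome 14, 57689662 to 57746212), a kinase that inhibits YAP and TAZ, fell in KO1. It was at 33.3, 33.8 and 33.3 CPM in KO1, 43.2, 45.4 and 47.6 CPM in KO2, and 53.7, 45.6 and 50.04 CPM in Ctrl. KO1 lay below both other groups, while KO2 and Ctrl overlapped. The level in KO1 was 67.2% of Ctrl (log2 fold change -0.57 ± 0.0768, SE; edgeR adjusted p = 0.000225). In KO2 the log2 fold change was -0.13 ± 0.0763 (SE; edgeR adjusted p = 0.161), and it passed under total count scaling (-0.21, edgeR adjusted p = 0.0355) and in both limma fits to FPKM (-0.21 and -0.23). Amotl2 (gene 56332, chromosome 9, 102717091 to 102733418), an angiomotin family member that binds YAP at junctions, fell in KO2. Its values were 87.8, 113 and 88.6 CPM in KO1, 69.8, 75.2 and 79.6 CPM in KO2, and 132, 105 and 112 CPM in Ctrl. KO2 lay below all Ctrl libraries (log2 fold change -0.64 ± 0.114, SE; edgeR adjusted p = 0.000743). In KO1 replicate 2 was within the Ctrl range, and the log2 fold change was -0.27 ± 0.114 (SE; edgeR adjusted p = 0.0968). Without that library it was -0.40 and passed (edgeR adjusted p = 0.00925).

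Ajuba (gene 16475, chromosome 14, 54567469 to 54577661) encodes a LIM protein that binds LATS kinases and restrains them, and it fell in both lines. It stood at 50.5, 40.6 and 47.6 CPM in KO1, at 36.4, 37.6 and 37.6 CPM in KO2, and at 57.99, 69.8 and 58.7 CPM in Ctrl. Both lines lay below Ctrl. The level was 74.4% of Ctrl in KO1 (log2 fold change -0.43 ± 0.0975, SE; edgeR adjusted p = 0.00654), while KO2 stood at 59.8% of Ctrl (-0.74 ± 0.0984, SE; edgeR adjusted p = 8.53e-05).

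Of the target genes, Ankrd1 (gene 107765, chromosome 19, 36111965 to 36119844), an ankyrin repeat protein widely used as a readout of YAP activity, fell in both lines. Its values were 76.8, 78.4 and 75.7 CPM in KO1, 100.4, 112 and 108 CPM in KO2, and 186, 147 and 158 CPM in Ctrl. The 3 groups did not overlap, and KO1 was the lowest. Ankrd1 was at 47.0% of Ctrl in KO1 (log2 fold change -1.09 ± 0.0873, SE; edgeR adjusted p = 4.77e-06), while KO2 stood at 65.2% of Ctrl (-0.62 ± 0.0865, SE; edgeR adjusted p = 0.000127).

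Arhgef17 (gene 207212, chromosome 7, 100869746 to 100932161), which encodes a guanine nucleotide exchange factor, also fell in both. It was at 52.9, 71.0 and 66.1 CPM in KO1, 54.3, 55.6 and 59.2 CPM in KO2, and 131, 124 and 133 CPM in Ctrl. The lines overlapped each other, well below Ctrl. The level was 49.0% of Ctrl in KO1 (log2 fold change -1.03 ± 0.0987, SE; edgeR adjusted p = 1.98e-05), while KO2 stood at 43.7% of Ctrl (-1.20 ± 0.0994, SE; edgeR adjusted p = 2.11e-06). Axl (gene 26362, chromosome 7, 25756500 to 25788924), the receptor tyrosine kinase for Gas6, fell in KO2. It had 1081, 957 and 1028 CPM in KO1, 834, 789 and 892 CPM in KO2, and 1070.2, 1258 and 1085 CPM in Ctrl. KO1 replicate 1 lay within the Ctrl range, while all KO2 libraries were below it. The log2 fold change was -0.44 ± 0.0828 in KO2 (SE; edgeR adjusted p = 0.000992) and -0.16 ± 0.0827 in KO1 (SE; edgeR adjusted p = 0.184).

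**Figure D3:**
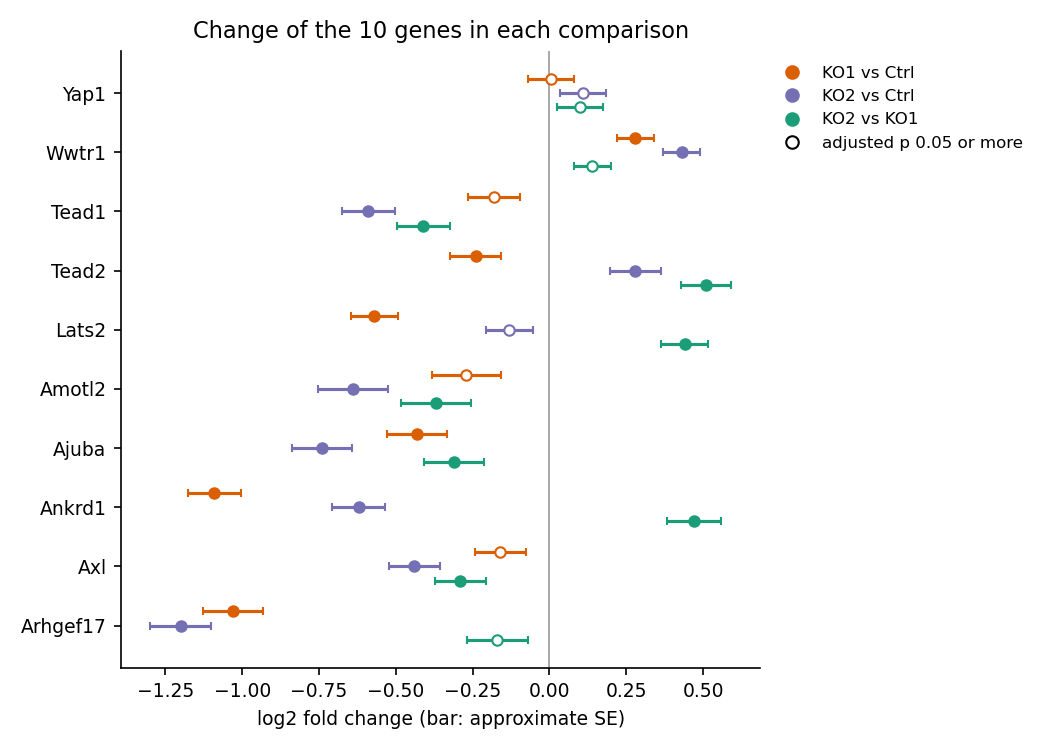
Log2 fold change (x axis) of the 10 genes in KO1 against Ctrl, KO2 against Ctrl and KO2 against KO1, with approximate SE as bars and open symbols where the edgeR adjusted p was 0.05 or more. Ankrd1, Arhgef17 and Ajuba are left of 0 in both lines against Ctrl, Wwtr1 is right of 0 in both, and Tead2 lies on opposite sides.

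Set directly against each other, the lines differed in 7 of the 10 genes, with 3 higher and 4 lower in KO2 than in KO1. The same comparison called 55.0% of the tested genes (25.5% higher and 29.5% lower), or 3495 higher and 4034 lower, against 2514 higher and 5023 lower under total count scaling. The CPM ranges of the lines were apart in 8 of the 10 genes, and in 62.2% of all. Higher in KO2 were Tead2 (log2 fold change 0.51 ± 0.0821, SE; edgeR adjusted p = 0.000327), Ankrd1 (0.47 ± 0.0869; 0.000841) and Lats2 (0.44 ± 0.0770; 0.000603). Lower in KO2 were Tead1 (-0.41 ± 0.0860, SE; edgeR adjusted p = 0.00199), Amotl2 (-0.37 ± 0.114; 0.0181), Ajuba (-0.31 ± 0.0985; 0.0186) and Axl (-0.29 ± 0.0827; 0.0126). Wwtr1 did not pass (0.14 ± 0.0609, SE; edgeR adjusted p = 0.0642), nor did Arhgef17 (-0.17 ± 0.0989; 0.173) or Yap1 (0.10 ± 0.0748; 0.26). The call on Amotl2 was lost without KO1 replicate 2 (-0.21) or KO2 replicate 1 (-0.32), that on Ajuba without KO1 replicate 1 (-0.25), KO1 replicate 3 (-0.29) or KO2 replicate 1 (-0.30), and that on Axl without KO2 replicate 2 (-0.24). Arhgef17 passed without KO1 replicate 1 (-0.28, edgeR adjusted p = 0.00693).

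Per length, Axl was the most abundant of the 10 genes in all groups, at 214 ± 13.8 FPKM in KO1, 163 ± 8.86 FPKM in KO2 and 234 ± 19.8 FPKM in Ctrl (SD, n = 3 each). In KO1 it was followed by Wwtr1, Tead2, Ankrd1, Yap1, Tead1, Amotl2, Ajuba, Lats2 and Arhgef17, in falling order of FPKM. The FPKM ranges of 3 neighbouring pairs overlapped there: Tead2 and Ankrd1, Yap1 and Tead1, and Lats2 and Arhgef17. In KO2 the order was Axl, Tead2, Ankrd1, Wwtr1, Yap1, Tead1, Amotl2, Ajuba, Lats2 and Arhgef17, with overlap of Tead2 with Ankrd1 and of Ankrd1 with Wwtr1. In Ctrl it was Axl, Ankrd1, Tead2, Wwtr1, Tead1, Yap1, Amotl2, Ajuba, Arhgef17 and Lats2, with overlap of Wwtr1 with Tead1 and of Tead1 with Yap1. Ankrd1 therefore held second place in Ctrl, at 96.4 ± 11.9 FPKM (SD, n = 3), but stood at 46.3 ± 0.618 FPKM in KO1 and 59.6 ± 3.10 FPKM in KO2 (SD, n = 3 each). The last place passed to Arhgef17 in both knockout lines, at 6.39 ± 0.934 FPKM in KO1 and 5.28 ± 0.200 FPKM in KO2 (SD, n = 3 each), against 12.8 ± 0.542 FPKM in Ctrl (SD, n = 3), where Lats2 was lowest.

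Within a group the 10 genes did not vary alike. In KO1, replicate 1 was the highest of the 3 libraries for Yap1, Wwtr1, Tead1, Ajuba and Axl, and replicate 2 was the lowest for those same 5. For Tead2, Lats2, Amotl2 and Arhgef17 the order of these libraries was turned round. In Ctrl, replicate 2 was the highest for Yap1, Tead1, Ajuba and Axl, and the lowest for Wwtr1, Lats2, Amotl2, Ankrd1 and Arhgef17. Over all genes, KO1 replicates 1 and 2 were also the replicate pair farthest apart, with a chi-square per gene of 60.74 (other pairs 8.27 to 34.79). The coefficient of variation reached 15.0% for Amotl2 and 14.8% for Arhgef17 in KO1, but was 0.919% for Lats2 and 1.79% for Ankrd1 there.

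The tables also give a transcript length per gene, a mean over the gene's transcripts that shifts when their mixture shifts. Of the 10 genes, 6 have several transcripts listed. Only Yap1 and Axl had length ranges in the knockout lines that did not overlap Ctrl, as did 15.7% of 6736 such genes in KO1 and 28.4% in KO2. The size was small. Yap1 averaged 4170 bases in both KO1 and KO2, against 4173 in Ctrl, and Axl 4965 in KO1 and 4958 in KO2, against 4944 in Ctrl. Between KO2 and KO1 the ranges overlapped for all 6, while 27.6% of such genes were apart. Lats2 had the largest difference in mean, at 4994 bases in KO1 and 5088 in KO2, against 5017 in Ctrl, with overlapping ranges.

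Other genes of the pathway came from 4 lists, also chosen with earlier results of these data known. In the kinase core, 2 of the 15 other genes were higher and 0 lower in KO1, and 3 were higher and 5 lower in KO2. Set against all tested genes, where 30.5% were called for KO1 and 54.1% for KO2, 2 of 15 lay below the background and 8 of 15 close to it. Map4k2, a kinase that can act on LATS, rose in both (log2 fold change 0.59 in KO1, edgeR adjusted p = 0.000273, and 0.92 in KO2, edgeR adjusted p = 3.48e-06). Lats1, the other LATS kinase, fell in KO2 (-0.37, edgeR adjusted p = 0.00816), where Lats2 did not pass; its value in KO1 was -0.08 (edgeR adjusted p = 0.561). The kinase genes Taok3 (-0.81, edgeR adjusted p = 0.000345) and Stk38l (-0.72, edgeR adjusted p = 0.000196) also fell in KO2. The whole list, Lats2 included, had 3 calls in KO1, and 5 without KO1 replicate 2.

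Among junction and polarity regulators, 18 of 23 other genes were tested, with 2 higher and 2 lower in KO1, and 5 higher and 8 lower in KO2. The background for the 4 calls of KO1 was 30.5% of tested genes, and for the 13 calls of KO2 it was 54.1% (24.6% higher and 29.5% lower). The giant cadherin gene Fat1 (log2 fold change -1.01, edgeR adjusted p = 4.44e-07) and Wwc1, which encodes the upstream activator KIBRA (-0.81, edgeR adjusted p = 2.51e-06), fell in KO2. Tiam1, an exchange factor of Rac linked to polarity, rose in KO2 to 38.5 ± 0.781 FPKM, against 7.38 ± 0.264 FPKM in Ctrl (SD, n = 3 each; log2 fold change 2.46, edgeR adjusted p = 1.84e-10). Nf2, the upstream tumour suppressor merlin, had a log2 fold change of 0.20 in KO2 (edgeR adjusted p = 0.018) and 0.01 in KO1 (edgeR adjusted p = 0.898). With Amotl2 and Ajuba the list had 5 calls in KO1, and 3 when any of Ctrl replicates 1 and 3 and KO1 replicate 3 was left out. In the list of coactivators and TEAD partners (the TEAD partner list), 7 of 10 other genes were tested. Of these, 1 was higher and 4 lower in KO1, and 1 higher and 2 lower in KO2. Of all tested genes, 30.5% and 54.1% were called in either direction. This list also holds Ywhab, Ywhae, Ywhaz and Ywhaq, which are neither coactivators nor TEAD partners. The calls in KO2 were all among them: Ywhae (log2 fold change 0.35), Ywhab (-0.21) and Ywhaq (-0.30). With the 4 genes of the set this list had 7 calls in KO1, and 4 without Ctrl replicate 1 or KO1 replicate 3.

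The target list, 22 genes widely used as a YAP readout, includes 5 of the 10. Of its 17 other genes 13 were tested, with 3 higher and 4 lower in KO1 (median log2 fold change -0.14), and 4 higher and 7 lower in KO2 (median -0.35). With the 5, the counts were 3 and 7 of 18 in KO1 and 4 and 11 of 18 in KO2. Over all tested genes 15.6% were higher and 14.9% lower for KO1 (median -0.002), and 24.6% were higher and 29.5% lower for KO2 (median -0.030). Ccn1, a matricellular protein gene named Cyr61 in the tables, fell in both lines, with a log2 fold change of -0.50 in KO1 (edgeR adjusted p = 0.000355) and -1.7 in KO2 (edgeR adjusted p = 1.11e-08). Ccn2, its relative listed as Ctgf, moved apart between the lines. It stood at 5.19 ± 0.180 FPKM in KO1, 0.710 ± 0.106 FPKM in KO2 and 3.47 ± 0.544 FPKM in Ctrl (SD, n = 3 each). The log2 fold change was 0.55 in KO1 (edgeR adjusted p = 0.00966) and -2.22 in KO2 (edgeR adjusted p = 5.36e-07), and -2.77 between KO2 and KO1 (edgeR adjusted p = 8.13e-08). Tgfb2, a TGF-beta ligand gene, fell too (-0.93 in KO1, edgeR adjusted p = 3.88e-05, and -4.47 in KO2, edgeR adjusted p = 3.64e-10). The matrix gene Ccdc80 did not pass in KO1 (log2 fold change -1.49, edgeR adjusted p = 0.0976). In KO2 its FPKM ran from 0 to 0.08 and averaged 0.0267, all of it from a single library. Reads were few, 26 counts in KO1, 9 in KO2 and 75 in Ctrl. In KO2 that is 12.9% of Ctrl (exact 95% counting interval 5.70% to 25.9%, log2 fold change -2.83). The interval covers counting error only, not the spread between libraries. Ccdc80 passed the filter on low counts only through Ctrl, where it was high. Its call among the 7 lower genes in KO2 is therefore a description, not a test.

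**Figure D4:**
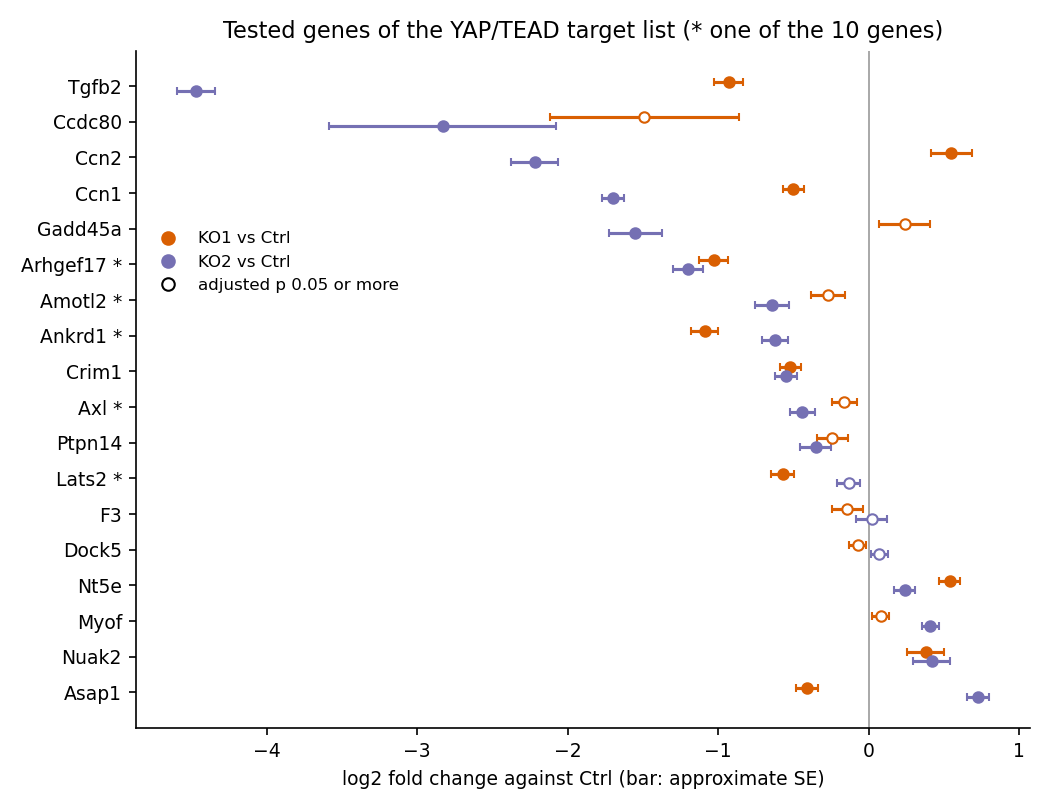
Log2 fold change against Ctrl (x axis) of the 18 tested genes of the YAP/TEAD target list in KO1 and KO2, with approximate SE as bars, open symbols where the edgeR adjusted p was 0.05 or more, and an asterisk at the 5 genes of the set. Tgfb2 and Ccn2 are the farthest left among well-covered genes in KO2 (-4.47 and -2.22), Ccn2 is right of 0 in KO1, and 4 genes passed as higher in KO2.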

How the data were processed

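RNA of 9 libraries (3 each of KO1, KO2 and Ctrl, grouped by sample title) was sequenced as 100-base pairs on BGISEQ-500, per the labels. HISAT and RSEM and the builds mm10 and GRCm38 are named in the submitters' processing notes, with versions not given in the sources used here. The deposited expected counts are estimated reads per gene that the authors did not normalise. The deposited FPKM were scaled by the authors for transcript length and library size, and genes under 0.01 FPKM were not listed and were taken as 0. Whether counting used strand is not given; of the 10 genes Wwtr1, Lats2 and Arhgef17 overlap other annotated genes, none of them listed.

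Expected counts were rounded and 1 robust quasi-likelihood model was fitted to all 9 libraries (R 4.3.3, edgeR 4.0.16, genes kept by filterByExpr, TMM scaling), with 6 residual degrees of freedom. The F test's p-values had Benjamini-Hochberg adjustment across the 13682 genes kept, and calls needed an adjusted p under 0.05. The approximate SE was taken as |log2 fold change| divided by the root of F. The steps were tested on simulated data. Replicate numbers were checked for pairing: same-numbered libraries correlated from -0.34 to 0.05 in their deviations from the group means. Differently numbered libraries reached 0.34 (Ctrl replicate 2 with KO1 replicate 1). No block was used, because the labels do not say that a replicate number marks a shared culture or day. Intervals cover counting error only.

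The 10 genes and the lists were chosen with earlier results of these data known. Named are the 10 genes; Malat1; Ccn1, Ccn2, Lats1, Nf2, Tead3 and Tead4; up to 4 genes per list with the largest called change (1 of these is not reported here); and the 3 genes most like Yap1 and Ankrd1. The alternatives were scaling by total count, by upper quartile or by DESeq2 size factors, no filter on low counts or one of 1 CPM in 3 libraries, voom (limma 3.58.1), DESeq2 1.42.0, and limma fits to log2(FPKM + 1) and to log2(FPKM + 0.1). Further ones were a replicate block, a fit to just the 2 groups at issue, a threshold of 0.01 and leaving out each library. Promoters are RefSeq windows of GRCm38.p6, matched for 8 of the 10 genes.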

Additional observations from a re-analysis of the deposited data

Results flagged for a closer look

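The 2 knockout lines share the targeted gene, yet their differences from Ctrl were unequal in 7 of the 10 genes, tested as KO2 against KO1 with edgeR. Tead2 differed by 0.51 on the log2 scale, with KO2 above and KO1 below Ctrl. Its KO1 call (edgeR adjusted p = 0.0493) was lost without any 1 of 8 of the 9 libraries. For Ankrd1 (0.47) and Lats2 (0.44) both estimates against Ctrl were negative, KO1 by more. Lats2 in KO2 was not called and overlapped Ctrl (edgeR adjusted p = 0.161). For Tead1 (-0.41), Amotl2 (-0.37), Ajuba (-0.31) and Axl (-0.29) both estimates were negative as well, KO2 by more. In KO1, however, Tead1, Amotl2 and Axl were not called and overlapped Ctrl (edgeR adjusted p = 0.135, 0.0968 and 0.184). Of all tested genes 55.0% differed between the lines by the same test.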

How the results depend on the processing

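Of the 30 log2 fold changes of the 10 genes (each gene in 3 comparisons), those that passed kept their direction under every alternative run. Counts of called members stayed within 1.5 times, with 5 to 7 called in KO1 against Ctrl, 7 to 8 in KO2 against Ctrl and 5 to 7 in KO2 against KO1 when single libraries were left out; at an adjusted p of 0.01 the last was 4 in place of 7. Over all genes, 4177 were called in KO1 at 0.05 and 2620 at 0.01. At 0.05 with single libraries left out, 3215 to 4503 were called in KO1, 6412 to 7985 in KO2 and 6451 to 7964 between the lines. Total count scaling moved the median of all genes between KO2 and KO1 from -0.021 to -0.127 and the split of calls from 3495 higher and 4034 lower to 2514 and 5023. Under it, Tead2 in KO2 was lost (0.20) and Lats2 in KO2 passed (-0.21), as on log2(FPKM + 1) (0.20 and -0.21) and log2(FPKM + 0.1) (0.20 and -0.23), and Arhgef17 between the lines passed (-0.27). The Yap1 change between the lines turned to -0.0029 under it and to -1.1e-06 on log2(FPKM + 1). That of Yap1 in KO1 turned to -0.019, -0.016 and -0.064 without Ctrl replicate 1, Ctrl replicate 3 and KO1 replicate 1. Without KO1 replicate 2 it was 0.054, so leaving out single libraries gave -0.064 to 0.054. Tead2 in KO1 was lost in 9 settings besides the stricter threshold, and Wwtr1 between the lines passed with DESeq2 (0.16). With a replicate block, 5, 8 and 7 members were called (KO1, KO2, between the lines); Tead2 in KO1 had an adjusted p of 0.0966 from edgeR and was the one member call it changed; with it, or with only the 2 groups compared, or at 0.01, the junction list had 3 calls in KO1 in place of 5 and the TEAD partner list 4 in place of 7. At 0.01 the junction list had 7 calls between the lines in place of 11, as without KO2 replicate 1. The causes were not tested. With 3 libraries a group, log2 differences of the size of their SE (0.0609 to 0.114 in the 10 genes) were not detectable.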

Other observations

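Among 10300 named genes with at least 5 CPM on average, those whose pattern over the 9 libraries lay nearest to Yap1 were Stt3a, Usf1 and Rtcb. Likeness was the root mean square difference in log2 CPM relative to the Ctrl mean, and it came to 0.033, 0.044 and 0.047. Nearest to Ankrd1 were Cndp2 (0.146), Ptgs2os2 (0.157) and Megf9 (0.178). Cndp2 had log2 fold changes of -1.02 in KO1 and -0.59 in KO2, against -1.09 and -0.62 for Ankrd1.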
